A study of Mus musculus with 12 samples.

Results

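Trp53, the gene for the tumor suppressor p53, and 9 genes of its circuit were followed across prostaglandin enzyme knockouts in murine melanoma cells. The others were Mdm2, Cdkn1a, Ccng1, Bax, Bbc3, Phlda3, Trp53inp1, Gdf15, and Cdkn2a. They were taken by name, and all 10 were found among the 30705 gene names measured. RNA was sequenced from 12 cultures of BrafV600E melanoma cells, with 3 samples for the scramble control and 3 for each of 3 knockouts made with CRISPR/CAS9. Knocked out were ptgs1 (ptgs1-KO), which codes for cyclooxygenase COX-1, ptgs2 (ptgs2-KO), for its relative COX-2, and ptges (ptges-KO), for the prostaglandin E synthase mPGES-1. The parental line came from a C57BL/6 mouse that carried an inducible mutant allele (Braf+/LSL-V600E), a tamoxifen-inducible Cre under the tyrosinase promoter (Tyr::CreERT2+/o), and a loss of p16INK4a (p16INK4a-/-). All 4 groups, the scramble controls included, share this background, in which Cdkn2a, the locus of p16INK4a, is itself altered. The lines were subclones of puromycin-resistant knockout cells, grown out at limiting dilution, and the 3 samples of a line are described both as subclones and as independent samples. Whether the subclones of a line arose from separate edits is not stated, so an effect of a knockout cannot be told apart from a property of its clones, and p-values measure only the spread between these samples, which may be technical.

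p53 is a transcription factor that is held low in unstressed cells by Mdm2, an E3 ubiquitin ligase whose own gene is a p53 target, so that the pair forms a negative feedback loop. The Cdkn2a locus feeds into this loop through p19Arf, which blocks Mdm2, while its other product, p16INK4a, inhibits CDK4 and CDK6 upstream of RB. Activated p53 raises Cdkn1a, which codes for the CDK inhibitor p21, and genes for apoptosis such as Bax and Bbc3. Control of p53 is largely exerted on the protein, which was not measured here.

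The elements through which p53 acts on DNA were looked up near the start sites of these genes, to show what sequence the members carry. RefSeq promoter windows on GRCm38.p6, which run from 250 bases before to 50 bases after a start site, were found for 9 of the 10 genes (14 windows), and Trp53inp1 was not among them. The p53 consensus decamer was searched at all of its 10 positions, and a complete element was taken as 2 adjoining decamers (20 bases) with at most 3 mismatches, none of them in the 4 central bases of either decamer. This motif reads the same on either strand, so 1 search covers both, and every complete element without mismatch also holds decamers. Complete elements are printed first and single decamers after them, each 5′ to 3′ on the strand of its gene, with the element in capitals.
Cdkn1a: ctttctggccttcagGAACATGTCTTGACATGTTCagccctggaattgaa
Bbc3: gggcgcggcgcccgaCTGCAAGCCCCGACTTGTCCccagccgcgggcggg
Trp53: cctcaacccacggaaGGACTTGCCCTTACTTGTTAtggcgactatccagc
Mdm2: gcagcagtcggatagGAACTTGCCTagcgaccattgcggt
Ccng1: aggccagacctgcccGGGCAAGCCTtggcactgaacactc
Bax: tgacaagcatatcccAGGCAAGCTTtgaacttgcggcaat

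The element in the Cdkn1a promoter lies at chr17:29090928-29090947 on the plus strand, from -51 to -32 relative to the upstream RefSeq start of Cdkn1a, and 2841 bases before the other start. It has 1 mismatch to the consensus, and 18 of 32851 RefSeq promoter windows (0.0548%) hold an element with at most 1. Both other complete elements had 3 mismatches, at chr7:16309486-16309505 for Bbc3, in an intron of a longer Bbc3 transcript, and at chr11:69580284-69580303 for Trp53. Elements with up to 3 mismatches occurred in 0.572% of the windows. The single decamers lie before the start sites of Mdm2 (chr10:117710935-117710944), Ccng1 (chr11:40755462-40755471), and Bax (chr7:45467090-45467099), and 8.36% of the windows hold such a decamer. These 3 genes lie on the minus strand. A Cdkn1a window holds a single decamer too, at chr17:29090906-29090915 on the plus strand, which is not printed. The windows of Phlda3, Gdf15, and Cdkn2a held no match, which says only that these letters are not there. Binding of p53 was not measured, and known p53 elements of several of these genes lie outside such windows.

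Values are RPKM, reads scaled to transcript length and library total, so levels of different genes can be set side by side per length. The knocked-out genes were examined first, since they check the labels. Ptgs1, the gene for COX-1, measured 16.9, 16.8, and 14.3 RPKM in ptgs1-KO cells and 138 to 173 RPKM in the other 9 samples. Ptgs2, the gene for COX-2, measured 78.5, 84.6, and 76.1 RPKM in ptgs2-KO cells and 502 to 807 RPKM elsewhere. Ptges, the gene for mPGES-1, measured 41.0, 35.6, and 34.8 RPKM in ptges-KO cells and 51.5 to 79.8 RPKM elsewhere, with the lowest of these in ptgs1-KO cells. Each targeted gene was thus lowest in its own line, without overlap, although mRNA of all of them remained.

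Markers of the melanocyte lineage were nearly absent in all groups. Of 10 such markers, Sox10, Mlana, Dct, Tyrp1, and Kit were listed at 0 in all 12 samples, and the highest, Mitf, averaged 2.30 RPKM. Their summed level was 4.27, 4.28, and 4.32 RPKM in scramble samples and 1.96 to 5.23 RPKM in the others. Endothelial markers (4 genes) summed to at most 0.28 RPKM and epithelial ones (5 genes) to at most 1.13 RPKM, led by Cdh5 and Krt8. Leukocyte markers (6 genes, 3 at 0 throughout) summed to 0.67 to 2.08 RPKM, almost all of it Cd68. The ptges-KO line had less Cd68 than scramble cells (log2 fold change -0.62, adjusted p = 0.0143), a call lost by Tukey's test. Here and below, p-values of Tukey's test were adjusted again by Benjamini-Hochberg over all genes tested, which is stricter than Tukey's test alone. Fibroblast markers (7 genes, Dcn and Lum at 0 throughout) summed to 17.5 to 23.97 RPKM in scramble, 23.95 to 35.4 in ptgs1-KO, 9.75 to 11.5 in ptgs2-KO, and 9.56 to 13.1 in ptges-KO samples, led by the receptor gene Pdgfrb. Col1a1 and Col1a2, also on this list, stayed at or under 1 RPKM on average. Relative to scramble cells, Pdgfra and Pdgfrb were lower in the ptgs2-KO line (log2 fold changes -0.93 and -0.75) and in the ptges-KO line (-0.52 and -0.996), with adjusted p of 0.0399 or less. In the ptgs1-KO line they measured 0.33 and 0.54 (adjusted p = 0.0614 and 0.147), both at an unadjusted p under 0.05, and Pdgfra was called higher there under the 3 other scalings (median ratio, quantile, and 20 highest genes left out). Of Pdgfra and Pdgfrb, Tukey's test called 1 in each knockout line against scramble cells. The part of these genes in the p53 results was not tested. In such bulk samples, fewer cells of a type and less RNA per cell cannot be told apart.

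One library stood apart. In ptgs1-KO replicate 3, the single transcript AK155692 held 8.24% of the summed values, against 0.283% to 2.80% in the other 11 samples. The 20 highest genes of this sample held 32.2%, against 21.4% to 26.3% for the 20 highest of each other sample, taken sample by sample. Counts and named calls that compare ptgs1-KO with scramble cells, and counts of p53 targets that compare it with the other lines, are therefore also given without this library. Over all genes tested, leaving it out moved the calls in ptgs1-KO against scramble cells from 525 higher and 520 lower to 653 and 355.

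Of the 10 genes, 8 reached the average of 1 RPKM across samples that was required for testing, while Cdkn2a (mean 0.992 RPKM) fell just below it and Gdf15 was almost absent. Ccng1 was the most abundant per length with a mean of 302 RPKM, followed by Trp53 (200.3), Bax (169), Cdkn1a (132), Phlda3 (123), Mdm2 (92.3), Bbc3 (22.0), and Trp53inp1 (15.3). All 8 differed over the 4 groups by limma's moderated F test with Benjamini-Hochberg adjustment over all 11282 genes tested, and 38.6% of all genes tested did so. Under the alternatives the count was 6 to 8.

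**Figure D1:**
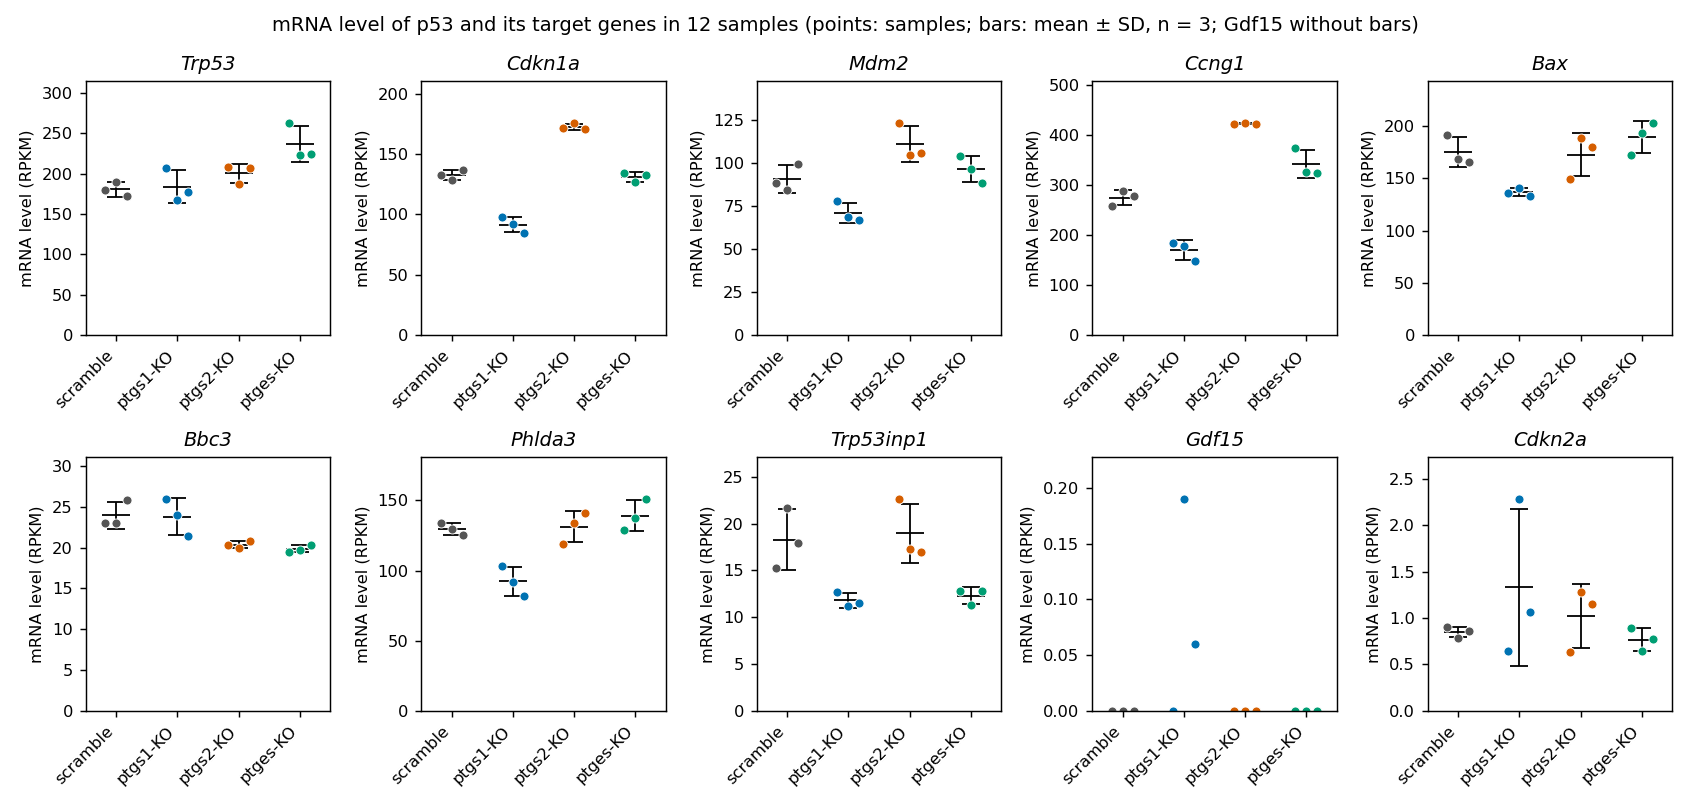
The mRNA level in RPKM (vertical axes from 0) of the 10 genes in each of the 12 samples is plotted as points by group, with bars for the mean ± SD (n = 3), except for Gdf15, which has no bars. Cdkn1a and Ccng1 separate ptgs1-KO samples below and ptgs2-KO samples above the scramble samples, while Trp53 is highest in ptges-KO samples.

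Trp53 itself was higher in 1 line. Its level was 179.6, 190.2, and 172 RPKM in scramble cells, 207, 168, and 177 RPKM in ptgs1-KO cells, 208, 187, and 207 RPKM in ptgs2-KO cells, and 262, 223, and 224 RPKM in ptges-KO cells. Samples of the first 3 groups overlapped, and the ptges-KO samples lay above all others. In ptges-KO cells Trp53 was 1.31 times the scramble mean (log2 fold change 0.39, standard error (SE) 0.09, adjusted p = 0.0089) and also exceeded ptgs1-KO cells (0.36, adjusted p = 0.0105). By Tukey's test on RPKM, adjusted again over all genes tested, neither difference passed (adjusted p = 0.0976 from scramble and 0.106 from ptgs1-KO cells). The difference between ptges-KO and ptgs2-KO cells did not pass the test (0.24, adjusted p = 0.104). Against scramble cells, Trp53 differed by 0.02 (adjusted p = 0.919) in ptgs1-KO and by 0.15 (adjusted p = 0.328) in ptgs2-KO cells on the log2 scale, each with an SE of 0.09.

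Mdm2, the antagonist and target of p53, measured 88.3, 84.2, and 99.6 RPKM in scramble cells and 77.7, 68.9, and 66.8 RPKM in ptgs1-KO cells. It measured 123, 105, and 106 RPKM in ptgs2-KO cells and 104, 96.5, and 88.5 RPKM in ptges-KO cells. The ptgs1-KO samples were the lowest and the ptgs2-KO samples the highest of the 12, and the ptges-KO samples overlapped the scramble samples. Mdm2 was lower in ptgs1-KO cells (log2 fold change -0.35, SE 0.10, adjusted p = 0.0376). This call was lost without any one of scramble replicates 1, 2, and 3, ptgs1-KO replicates 2 and 3, and ptges-KO replicate 2, with adjusted p from 0.0506 to 0.144. In ptgs2-KO cells the log2 fold change was 0.29 (adjusted p = 0.0698). The direct difference between ptgs2-KO and ptgs1-KO cells was 0.63 (SE 0.10, adjusted p = 0.000339).

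Cdkn2a was close to the limit of measurement and was not tested. Its level was 0.90, 0.79, and 0.86 RPKM in scramble, 0.65, 2.28, and 1.06 RPKM in ptgs1-KO, 0.63, 1.28, and 1.15 RPKM in ptgs2-KO, and 0.89, 0.64, and 0.77 RPKM in ptges-KO samples. All groups overlapped. These values correspond to an estimated 7.5 to 29.3 reads per sample, and a value for the gene does not part transcripts of p16INK4a from those of p19Arf. Without the filter on low values, none of its 6 comparisons passed the test in limma (lowest adjusted p = 0.337).

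Cdkn1a, the gene for p21, separated the groups with little spread. It measured 133, 129, and 137 RPKM in scramble cells, 97.7, 92.1, and 85.1 RPKM in ptgs1-KO cells, 171, 175, and 171 RPKM in ptgs2-KO cells, and 134, 126, and 133 RPKM in ptges-KO cells. All ptgs1-KO samples lay below and all ptgs2-KO samples above the 6 scramble and ptges-KO samples, which overlapped. Against scramble cells, Cdkn1a was lower in ptgs1-KO cells, at 0.689 times their mean (log2 fold change -0.53, SE 0.07, adjusted p = 0.000203), and higher in ptgs2-KO cells, at 1.30 times (0.37, SE 0.07, adjusted p = 0.00366). In ptges-KO cells the log2 fold change was -0.02 (SE 0.07, adjusted p = 0.866), and its sign changed with the scaling. Both calls were made under all 22 settings of the model, ptgs1-KO replicate 3 left out included. Exons of Cdkn1a share 7.7% of their bases with an unnamed gene model on the opposite strand, AC167363.2, and whether the counting used strand is not given in the sources used here.

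Ccng1, which codes for cyclin G1, a target of p53 that acts in its feedback control, showed the widest range. It measured 257, 287, and 278 RPKM in scramble cells, 183, 178, and 147 RPKM in ptgs1-KO cells, 421, 422, and 422 RPKM in ptgs2-KO cells, and 373, 325, and 324 RPKM in ptges-KO cells. No groups overlapped, and the order was ptgs1-KO, scramble, ptges-KO, ptgs2-KO from low to high. Relative to scramble cells, it was 0.618 times in ptgs1-KO cells (log2 fold change -0.70, SE 0.09, adjusted p = 0.000268), 1.54 times in ptgs2-KO cells (0.62, adjusted p = 0.000848), and 1.24 times in ptges-KO cells (0.31, adjusted p = 0.0237). The first 2 calls were made under all 22 settings. The call in ptges-KO cells was lost without scramble replicate 1 or 3 or ptges-KO replicate 1, with adjusted p from 0.0576 to 0.0935, and by Tukey's test (adjusted p = 0.0783).

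The 4 genes linked to apoptosis differed in their order of groups. Bax, whose product permeabilizes mitochondria, measured 192, 169, and 166 RPKM in scramble cells, 136, 141, and 133 RPKM in ptgs1-KO cells, 149, 189, and 180.0 RPKM in ptgs2-KO cells, and 172, 194, and 203 RPKM in ptges-KO cells. The ptgs1-KO samples lay below all others, and the other 3 groups overlapped. Bax was lower in ptgs1-KO than in scramble cells (log2 fold change -0.36, SE 0.10, adjusted p = 0.0366), a call lost without any one scramble or ptgs1-KO replicate or ptges-KO replicate 2 (adjusted p from 0.0545 to 0.159). Its log2 fold changes in the other lines were -0.03 (ptgs2-KO, adjusted p = 0.893) and 0.11 (ptges-KO, adjusted p = 0.442). Bax shares 12.2% of its exon bases with the gene model Gm45808 on the same strand.

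Phlda3, a p53 target that restrains AKT signaling, followed a similar order of groups. Its level was 134, 129.9, and 126 RPKM in scramble cells, 103, 92.1, and 81.6 RPKM in ptgs1-KO cells, 119, 134, and 141 RPKM in ptgs2-KO cells, and 129, 138, and 151 RPKM in ptges-KO cells. Again only the ptgs1-KO samples stood apart, below the rest. Phlda3 was 0.711 times the scramble mean in ptgs1-KO cells (log2 fold change -0.49, SE 0.09, adjusted p = 0.00508), a call lost by Tukey's test (adjusted p = 0.121), and did not pass the test in the other lines (0.02 and 0.10, adjusted p = 0.935 and 0.487).

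Bbc3, the gene for the BH3-only protein PUMA, went another way. It measured 23.0, 23.1, and 25.8 RPKM in scramble cells, 25.9, 24.03, and 21.4 RPKM in ptgs1-KO cells, 20.3, 19.98, and 20.8 RPKM in ptgs2-KO cells, and 19.5, 19.7, and 20.4 RPKM in ptges-KO cells. The ptgs2-KO and ptges-KO samples overlapped and lay below all others. In the ptges-KO line Bbc3 was lower than in scramble cells, at 0.830 times their mean (log2 fold change -0.26, SE 0.08, adjusted p = 0.0398). This call was lost on leaving out any one of 9 libraries, namely scramble replicates 1, 2, and 3, ptgs1-KO replicate 2, ptgs2-KO replicates 2 and 3, and ptges-KO replicates 1, 2, and 3 (adjusted p from 0.0509 to 0.154), with a replicate block (adjusted p = 0.053), and by Tukey's test (adjusted p = 0.166). The log2 fold change was -0.22 in ptgs2-KO cells (adjusted p = 0.112) and -0.01 in ptgs1-KO cells (adjusted p = 0.961).

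Trp53inp1, which codes for a stress protein that assists p53 and acts in autophagy, measured 15.3, 21.7, and 17.9 RPKM in scramble cells, 12.7, 11.2, and 11.5 RPKM in ptgs1-KO cells, 22.6, 17.2, and 17.0 RPKM in ptgs2-KO cells, and 12.9, 11.3, and 12.8 RPKM in ptges-KO cells. The ptgs1-KO and ptges-KO samples overlapped each other and lay below all scramble and ptgs2-KO samples, which also overlapped. Its log2 fold change was -0.58 in ptgs1-KO cells (SE 0.13, adjusted p = 0.0146) and in the ptges-KO line -0.52 (SE 0.13, adjusted p = 0.0115). Without scramble replicate 2 both calls were lost, as they were without replicate 2 of the respective knockout line, with adjusted p from 0.0526 to 0.0694, and by Tukey's test (adjusted p = 0.355 and 0.235). In ptgs2-KO cells the log2 fold change was 0.05 (adjusted p = 0.848).

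Gdf15, a secreted stress cytokine and p53 target, was listed at 0 in 10 of the 12 samples. Only ptgs1-KO replicates 2 and 3 had values, of 0.19 and 0.06 RPKM, which correspond to at most an estimated 4.2 reads. No fold change is given.

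The members were then counted by line. In ptgs1-KO cells 6 of the 8 tested genes were lower than in scramble cells (Ccng1, Trp53inp1, Cdkn1a, Phlda3, Bax, and Mdm2) and 0 higher, beside 4.61% and 4.65% of all genes tested and 9.26% in either direction. Samples of the groups did not overlap for 6 of the 10 genes, all lower, beside 26.9% of all genes tested (13.7% higher and 13.2% lower). At an unadjusted p under 0.05 the counts were also 6 and 0, and Tukey's test called 2 lower (Ccng1 and Cdkn1a) and 0 higher. Their median log2 fold change was -0.42, against 0.01 over all genes tested. Without ptgs1-KO replicate 3, 4 remained lower (Ccng1, Trp53inp1, Cdkn1a, and Phlda3). Without scramble replicate 2 or ptgs1-KO replicate 2, 3 were lower. The Mdm2 and Bax calls were also lost without the filter on low values and without the trend in the model, which left 4, and that of Mdm2 in a fit of only these groups (adjusted p = 0.0505), which left 5.

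In ptgs2-KO cells 2 genes were higher than in scramble cells (Ccng1 and Cdkn1a) and 0 lower, beside 5.97% and 5.17% of all genes tested and 11.1% in either direction. The groups did not overlap for 3 of the 10 genes that were higher (Ccng1, Cdkn1a, and Mdm2) and 1 that was lower (Bbc3), beside 19.4% and 15.8% of all genes tested and 35.1% in either direction. At an unadjusted p under 0.05, 3 were higher and 1 lower, and Tukey's test called 2. Scaling by the median ratio or quantile normalization gave 3 higher, with Mdm2 added, and 1 lower, Bbc3. The median log2 fold change of the 8 genes was 0.10, against 0.01 over all genes tested.

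In ptges-KO cells 2 genes were higher (Trp53 and Ccng1) and 2 lower (Trp53inp1 and Bbc3), beside 11.9% and 14.4% of all genes tested. The number called, 4 of 8, thus stood beside 26.3% of all genes tested. The groups did not overlap for 2 genes higher and 2 lower of the 10, beside 20.3% and 23.0% of all genes tested and 43.3% in either direction. The count was 2 without any one of scramble replicates 1, 2, and 3 and ptges-KO replicates 1 and 2, and 0 by Tukey's test. The median was 0.09, against -0.03 over all genes tested. The plot of fold changes by line shows these 24 differences.

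**Figure D2:**
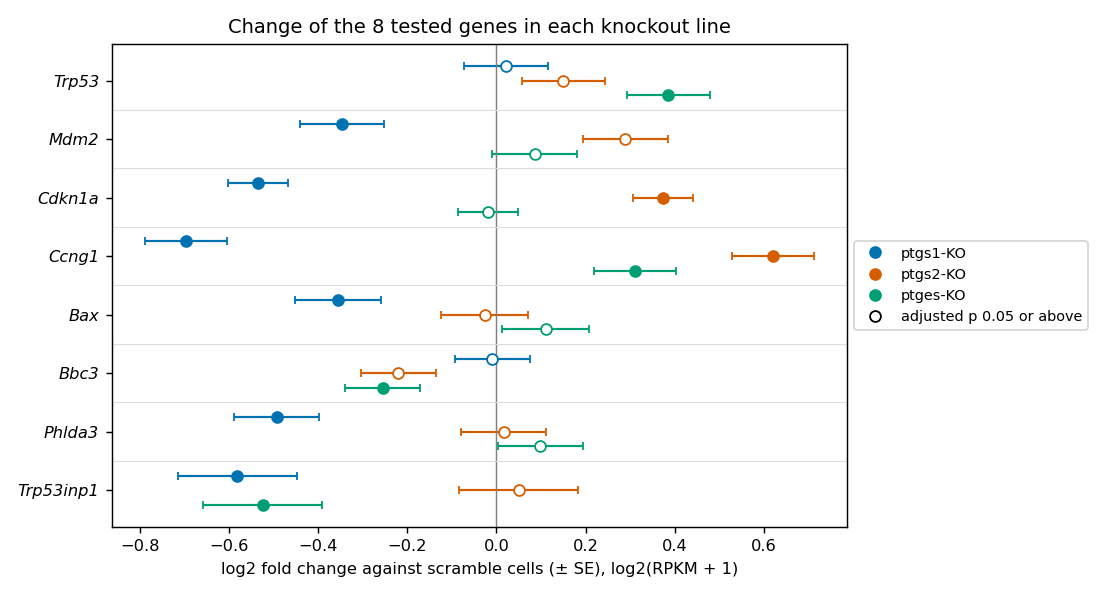
Log2 fold changes against scramble cells on log2(RPKM + 1) values (horizontal axis, bars ± SE) are plotted for the 8 tested genes in the 3 knockout lines, with filled points for an adjusted p under 0.05. The 6 filled ptgs1-KO points lie left of 0, from -0.70 for Ccng1 to -0.35 for Mdm2, and both filled ptgs2-KO points lie right of it.

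The lines were also compared directly, since comparisons with scramble cells share the same controls. Between ptgs2-KO and ptgs1-KO cells, 6 of the 8 genes were higher in ptgs2-KO cells and 0 lower, beside 12.1% and 11.6% of all genes tested and 23.6% in either direction. The groups did not overlap for 6 of the 10 genes that were higher and 1 that was lower, beside 18.2% and 17.0% of all genes tested and 35.2% in either direction. The log2 differences were 1.32 for Ccng1 (SE 0.09, adjusted p = 3.43e-07), 0.91 for Cdkn1a (SE 0.07, adjusted p = 6.85e-07), 0.63 for Mdm2, 0.63 for Trp53inp1, 0.51 for Phlda3, and 0.33 for Bax (adjusted p = 0.0261). The median difference was 0.57, against -0.00 over all genes tested, and at an unadjusted p under 0.05 Bbc3 was the 1 gene lower (-0.21). Tukey's test called 4 of the 8. Bbc3 was also called lower under median-ratio scaling, quantile normalization, and scaling without the 20 highest genes, each with 6 higher and 1 lower. Without ptgs1-KO replicate 3, 5 were higher and Bbc3 was lower (adjusted p = 0.0253). The Bax call was lost without any one of ptgs1-KO replicates 1 and 3 and ptgs2-KO replicates 2 and 3, with adjusted p from 0.0618 to 0.113, and in a fit of only these groups (adjusted p = 0.0586).

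In ptges-KO cells, 6 genes were higher than in ptgs1-KO cells, beside 13.2% of all genes tested, and 1 lower, beside 17.0%, with 30.2% in either direction. The groups did not overlap for 6 higher and 1 lower of the 10 genes, beside 17.9% and 22.4% of all genes tested and 40.3% in either direction. Ccng1 differed by 1.01 (SE 0.09, adjusted p = 2.91e-06), Phlda3 by 0.59, Cdkn1a by 0.52, Bax by 0.47, Mdm2 by 0.43, and Trp53 by 0.36, and Bbc3 was lower by -0.25 (adjusted p = 0.0422). The Bbc3 call was lost without any one of 9 libraries (adjusted p from 0.0518 to 0.145), those of scramble replicates 1 and 2, ptgs1-KO replicates 1 and 2, ptgs2-KO replicates 2 and 3, and ptges-KO replicates 1, 2, and 3, under quantile normalization, with the replicate number as a block (adjusted p = 0.0553), and in a fit of only these groups (adjusted p = 0.117). Tukey's test called 3 of the 8, so that Trp53, Mdm2, Bax, and Bbc3 were lost. Without ptgs1-KO replicate 3 the counts were also 6 higher and 1 lower.

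Between ptges-KO and ptgs2-KO cells, 3 genes were lower in ptges-KO cells, beside 9.84% of all genes tested, and 0 higher, beside 6.76%, with 16.6% in either direction. The groups did not overlap for 1 higher and 4 lower of the 10 genes, beside 14.9% and 19.1% of all genes tested and 34.0% in either direction. The genes called were Trp53inp1 (-0.57, adjusted p = 0.0101), Cdkn1a (-0.39, SE 0.07, adjusted p = 0.00146), and Ccng1 (-0.31, adjusted p = 0.0344). At an unadjusted p under 0.05, Trp53 was the 1 gene higher, and median-ratio scaling called it (adjusted p = 0.0407), while Tukey's test called 1 gene in all. The Ccng1 call was lost without scramble replicate 3, any one ptgs2-KO replicate, or ptges-KO replicate 2 or 3 (adjusted p from 0.0505 to 0.132), and without the filter on low values (adjusted p = 0.0521), and that of Trp53inp1 without ptges-KO replicate 2 (adjusted p = 0.0510).

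To see how far other genes of the pathway moved, 38 further p53 targets were examined, of which 33 were tested. The other 5 were below the filter on low values. In ptgs1-KO cells 11 were lower and 1 higher relative to scramble cells, beside 4.61% and 4.65% of all genes tested. Their median was -0.31 on the log2 scale (0.01 over all genes tested), and Tukey's test called 2, both lower. Of 23 tested genes for arrest, repair, and metabolism, 9 were lower and 1, Gadd45a, higher, and of 10 tested genes for apoptosis, 2 were lower and 0 higher (6 and 0 at an unadjusted p under 0.05, and 0 by Tukey's test). The largest falls were those of Psrc1, a microtubule-associated protein gene, from 3.89 to 1.35 RPKM (log2 fold change -1.04, SE 0.17, adjusted p = 0.00141), Ak1, an adenylate kinase gene, from 66.4 to 33.2 RPKM (-0.98, SE 0.08, adjusted p = 5.02e-06), and Btg2, an antiproliferative gene, from 11.3 to 5.49 RPKM (-0.93, SE 0.10, adjusted p = 7.17e-05). Among the apoptosis genes, the death receptor gene Tnfrsf10b (-0.73, adjusted p = 0.000638) and Bid (-0.51, adjusted p = 0.0315) were lower. Without ptgs1-KO replicate 3, 8 were lower and 0 higher, with Psrc1 (-0.99), Ak1 (-0.91), Btg2 (-0.83), and Tnfrsf10b (-0.65) still called and Bid (-0.50, adjusted p = 0.0712) not, and without scramble replicate 1 or 3, 6 and 7 were lower. Ephx1, a detoxification gene and the most abundant of these targets, was lower as well (-0.38, adjusted p = 0.0182, and 0.0441 without that library).

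In ptgs2-KO cells 7 of the 33 further targets were higher and 0 lower, beside 5.97% and 5.17% of all genes tested, with a median of 0.13 (0.01 over all genes tested). At an unadjusted p under 0.05, 11 were higher and 4 lower, and Tukey's test called 4, all higher. The costimulatory gene Cd80 rose from 3.10 to 7.79 RPKM (log2 fold change 1.11, SE 0.14, adjusted p = 0.000290), and Ak1 rose from 66.4 to 114 RPKM (0.77, SE 0.08, adjusted p = 6.91e-05). Pmaip1, which codes for the BH3-only protein NOXA, was the 1 apoptosis gene called (0.39, adjusted p = 0.0125), a call lost by Tukey's test. With ptgs1-KO replicate 3 left out of the model, 10 were higher and 1 lower, and by the median ratio 12 and 1.

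In ptges-KO cells 3 further targets were higher and 6 lower, beside 11.9% and 14.4% of all genes tested, a share near that of all genes. Tukey's test called 5. The 33 had a median of -0.03, the same as over all genes tested. By the median ratio 6 were higher and 6 lower. Of the 33 tested, Pmaip1 rose most, from 22.2 to 37.0 RPKM (0.71, SE 0.09, adjusted p = 0.000101). Ak1 fell from 66.4 RPKM (-1.38, SE 0.08, adjusted p = 1.83e-07), Tigar, a regulator of glycolysis, from 7.80 to 3.94 RPKM (-0.83, adjusted p = 4.45e-05), the BH3-only gene Bcl2l11 (BIM) by -0.50 (adjusted p = 0.0189), and Btg2 by -0.48 (adjusted p = 0.00475). Ak1 thus measured 24.4, 26.9, and 23.7 RPKM in ptges-KO, 36.4, 33.4, and 29.8 in ptgs1-KO, 68.6, 64.0, and 66.7 in scramble, and 112, 121, and 110 RPKM in ptgs2-KO samples, without overlap between groups. When ptgs2-KO and ptgs1-KO cells were compared directly, 21 of the 33 were higher and 2 lower, beside 12.1% and 11.6% of all genes tested, with a median of 0.39 (-0.00 over all genes tested), and 20 and 1 without ptgs1-KO replicate 3. Ptges-KO against ptgs1-KO cells gave 13 higher and 4 lower (12 and 4 without ptgs1-KO replicate 3), beside 13.2% and 17.0% of all genes tested. Ptges-KO against ptgs2-KO cells gave 2 higher and 7 lower, beside 6.76% and 9.84%. By Tukey's test, 17, 9, and 5 of the 33 were called in these direct comparisons, in the order given.

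Of these targets, 4 are named after their values were seen. Zmat3, which codes for an RNA-binding protein, had log2 fold changes of -0.67 in ptgs1-KO and 0.40 in ptgs2-KO cells (adjusted p = 0.00209 and 0.0393). For Ercc5, a nucleotide excision repair gene, they were -0.44 and 0.45 (adjusted p = 0.0149 and 0.0123). For the kinase gene Plk2 they were -0.32 and 0.54 (adjusted p = 0.0382 and 0.0017). In the model without ptgs1-KO replicate 3, Zmat3 and Ercc5 were still called in ptgs1-KO cells, and Plk2 was not (adjusted p = 0.0989). Tukey's test called only 2 of all tested further targets in ptgs1-KO cells and 4 in ptgs2-KO cells. Not all of these ptgs1-KO calls can therefore have passed it. Gadd45a, an arrest and repair gene, measured 0.41 and -0.30 instead (adjusted p = 0.0425 and 0.116), and its call was lost without any one of scramble replicates 2 and 3, ptgs1-KO replicates 1, 2, and 3, and ptges-KO replicates 2 and 3. It was also lost with a replicate block, without the filter on low values, in a fit of only the groups compared, and by Tukey's test.

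**Figure D3:**
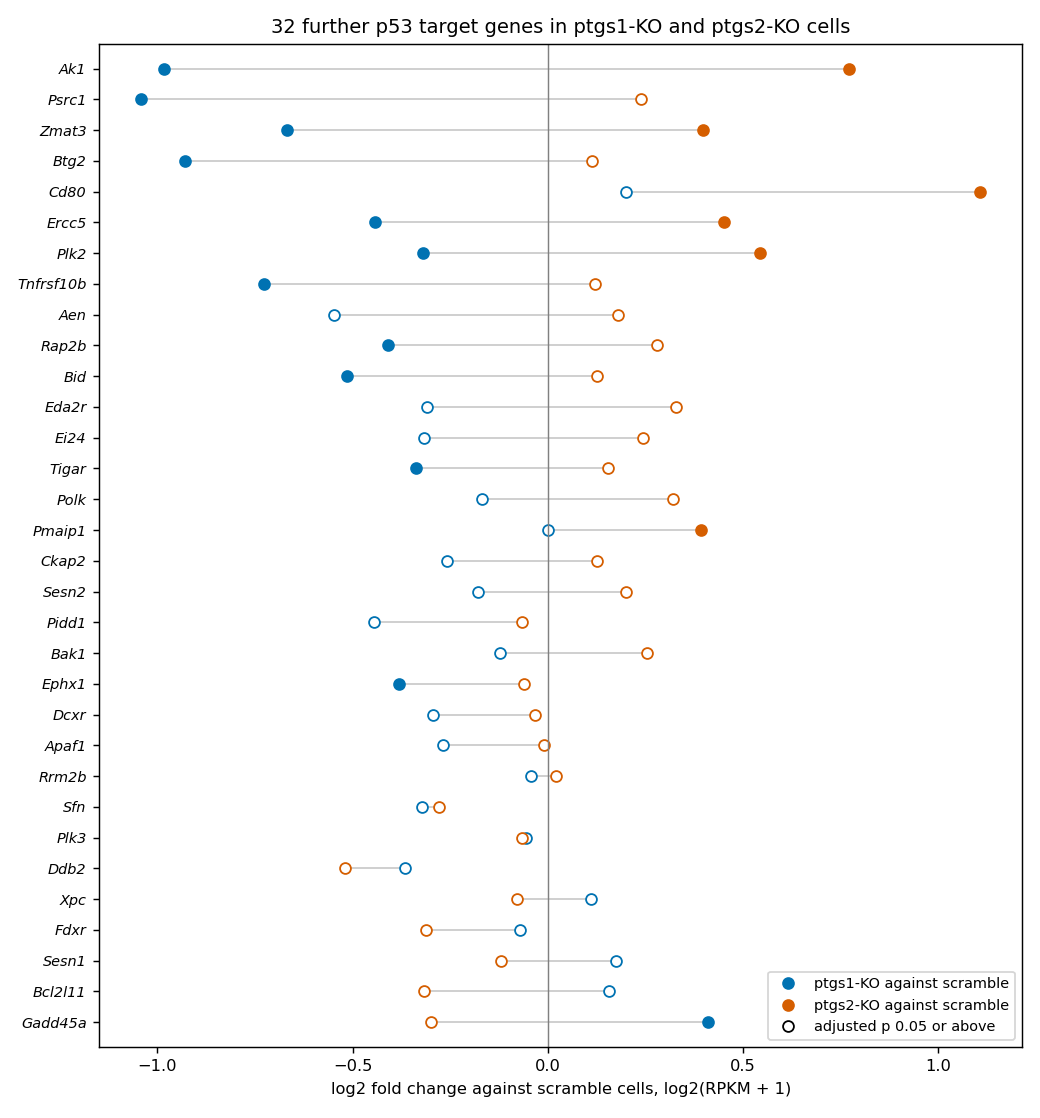
Log2 fold changes against scramble cells on log2(RPKM + 1) values (horizontal axis) are plotted for 32 of the 33 further p53 targets (vertical axis, ordered by the difference between the lines) in ptgs1-KO and ptgs2-KO cells, with filled points for an adjusted p under 0.05 and a line joining the points of a gene. Ak1 has the longest line, from -0.98 to 0.77, and at the bottom Gadd45a runs the other way, from 0.41 to -0.30. Gadd45a is 1 of 7 targets with a lower value in ptgs2-KO than in ptgs1-KO cells. Of these, Gadd45a and Bcl2l11 were called by limma when the lines were compared directly.

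**Figure D4:**
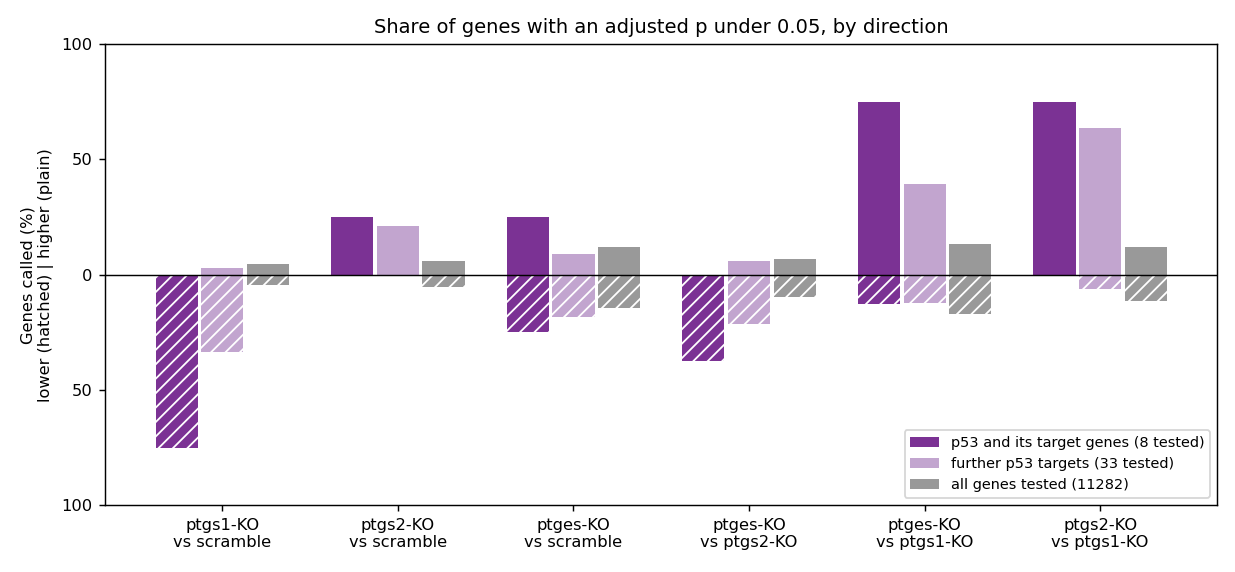
For the 6 comparisons, bars give the percent of genes with an adjusted p under 0.05 that were higher (plain, upward) and lower (hatched, downward) in the first line named, among the 8 tested genes of p53 and its targets, the 33 further targets, and the 11282 genes tested. In ptgs2-KO against ptgs1-KO cells 6 of 8 and 21 of 33 were higher, beside 12.1% of all genes.

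Upstream of p53, 22 family members and regulators were examined and 20 tested. In ptgs1-KO and ptgs2-KO cells 0 were called by limma or Tukey's test, with 1 and 2 at an unadjusted p under 0.05, and 0 also without ptgs1-KO replicate 3. Median-ratio scaling and the replicate block each called 1 in ptgs2-KO cells, Usp7, which was higher. In ptges-KO cells the checkpoint kinase gene Chek2 (0.33, adjusted p = 0.0206) and the mitotic kinase gene Aurka (0.25, adjusted p = 0.0456), the most abundant of the list, were higher, and Prkdc, the gene for the DNA-PK catalytic subunit, was lower (-0.36, adjusted p = 0.0486). These 3 of 20 stood beside 26.3% of all genes tested, so the list was not called more often than genes at large. Tukey's test called 0 of them, Prkdc was lost under quantile normalization, and Aurka was lost when the 20 highest genes were left out of the scaling. Added by these scalings were Ppm1d, higher under quantile normalization, and Mdm4, lower with the 20 highest genes left out, and the median ratio added Usp7, which was higher.

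The anti-apoptotic BCL2 family, which opposes Bax and Bbc3, had 4 of 7 genes tested and, on the values as deposited, 0 called in any line against scramble cells, with 3, 1, and 2 at an unadjusted p under 0.05 in the ptgs1-KO, the ptgs2-KO, and the ptges-KO line and 0 by Tukey's test or without ptgs1-KO replicate 3. Median-ratio scaling called Bcl2l1 higher and Mcl1 lower in the ptgs1-KO line, Mcl1 higher in the ptgs2-KO line, and Bcl2l1 higher in the ptges-KO line. Quantile normalization made the same calls in the ptgs1-KO line, and scaling without the 20 highest genes called Bcl2l2 lower in the ptges-KO line. Mcl1, its most abundant gene, measured 152 ± 5.89 RPKM (SD, n = 3) in scramble cells and 136 ± 7.64, 171 ± 6.67, and 152 ± 1.47 RPKM in the 3 lines in that order.

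In the RB arm, on which p16INK4a acts, 14 of 16 genes were tested. Cdkn1b, the gene for the CDK inhibitor p27, and E2f1 were higher in ptgs1-KO cells (adjusted p = 0.0314 and 0.0414), and the cyclin D genes Ccnd2 and Ccnd3 in ptgs2-KO cells, beside 4.65% and 5.97% of all genes tested. Both calls in ptgs1-KO cells also held without replicate 3, where Cdkn2c was called as well. Tukey's test called 0, 1, and 2 genes of this list in the ptgs1-KO, the ptgs2-KO, and the ptges-KO line. Under the 3 other scalings 3 or 4 were higher in the ptgs1-KO line (with Ccnd2 lower by the median ratio), 2 or 3 in the ptgs2-KO line (with Cdkn1b lower under quantile normalization), and 0 to 3 in the ptges-KO line. Cdkn1b averaged 47.7 RPKM in scramble and 61.8 RPKM in ptgs1-KO cells, while Cdkn1a was lower there. In ptges-KO cells Rb1 was higher (adjusted p = 0.0456), a call lost when the 20 highest genes were left out of the scaling, and Ccnd2 and E2f2 were lower, which made 3 of 14 beside 26.3% of all genes tested. The level of Ccnd2 was 69.1 RPKM in scramble, 99.4 in ptgs2-KO, and 40.2 RPKM in ptges-KO cells. The most abundant gene, Ccnd1, averaged 880 to 1017 RPKM in the 4 groups.

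Of cell cycle genes that p53 is known to lower through p21 and the DREAM complex, all 12 were tested. Ccna2, the gene for cyclin A2, was the 1 gene lower in ptgs1-KO cells and the 1 gene higher in ptgs2-KO cells, beside 4.61% and 5.97% of all genes tested, a share near that of all genes for 1 of 12. Ccna2, Bub1, and Birc5 were higher in ptges-KO cells, beside 11.9% of all genes tested. Tukey's test called 1 gene of the list in each line. Ccna2 was also called lower in ptgs1-KO cells without replicate 3 (-0.29, adjusted p = 0.0154). Under the 3 other scalings 2 or 3 genes were lower in ptgs1-KO cells and 3 to 6 higher in ptges-KO cells. Ccna2 averaged 312 RPKM in scramble, 242 in ptgs1-KO, 391 in ptgs2-KO, and 388 RPKM in ptges-KO cells. In ptgs1-KO cells Ccna2 and Cdkn1a were both lower, and in ptgs2-KO cells both were higher. The counts in the opposite directions were 0 in all 3 lines, also at an unadjusted p under 0.05. Top2a, the most abundant of the list, was not called in any line on the values as deposited, and was higher in ptges-KO cells by the median ratio.

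Of 12 genes of the ATF4 stress response, another stress pathway that shares some outputs with p53, 6 were higher and 0 lower in ptgs1-KO cells, 1 higher and 2 lower in ptgs2-KO cells, and 5 higher and 0 lower in ptges-KO cells. Of all genes tested, 9.26%, 11.1%, and 26.3% were called in either direction in these comparisons, and Tukey's test called 1, 0, and 3 of the 12. With ptgs1-KO replicate 3 left out, the count in ptgs1-KO cells was also 6, with Cebpb lost and Chac1 called. Under the 3 other scalings 6 to 8 were higher in ptgs1-KO and 4 to 7 in ptges-KO cells, 4 were lower in ptgs2-KO cells, and 1, Ppp1r15a, was lower in ptges-KO cells when the 20 highest genes were left out. The pseudokinase gene Trib3 averaged 48.5 RPKM in scramble, 91.8 in ptgs1-KO, 40.9 in ptgs2-KO, and 68.4 RPKM in ptges-KO cells. The lipoprotein receptor gene Vldlr averaged 35.3, 50.8, 21.4, and 32.9 RPKM in the same order, and Slc7a11, the gene for the cystine transporter xCT, 18.04, 28.1, 15.9, and 17.98 RPKM. Chac1 was lower in ptgs2-KO cells (-0.40, adjusted p = 0.0123), Nupr1 higher in ptges-KO cells (0.74, adjusted p = 0.00218), and Psat1, the most abundant of the list, higher in all 3 lines (0.30, 0.28, and 0.54).

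Across the 12 samples, the genes outside this set whose log2(RPKM + 1) values were most like those of Cdkn1a were Cdc42se1 (Pearson's r = 0.982), Ppa2 (0.980), Gfm1 (0.979), Bcas2 (0.977), and Cisd2 (0.974). Those most like Trp53 were Cap1 (0.930), Cat (0.929), Klf5 (0.928), Rnf217 (0.924), and Nadkd1 (0.924). These correlations describe 12 samples in 4 groups of 3 that share a scaling, and they were picked as the highest of 11282 genes. Cap1, for example, averaged 146 RPKM in scramble and 210 RPKM in ptges-KO cells.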

How the data were processed

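RNA-seq of 12 samples (4 groups of 3) was analyzed from 1 table, in which the authors deposited RPKM values to 2 decimals. The authors' processing notes name the build mm10, and the aligner, counter, and annotation are not given in the sources used here. The labels name both a directional library kit and one without strand. Sums of the values ran from 878504 to 903881, so a scaling to a fixed total cannot be told apart from RPKM. If the values are RPKM, steps between low values give an estimated 13.3 to 17.0 M reads per sample, least sharply in ptgs1-KO replicate 1. Counting intervals were not computed.

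Genes that averaged 1 RPKM or more were tested on log2(RPKM + 1), which understates changes of low genes, by limma 3.58.1 in R 4.3.3 (lmFit and eBayes with trend, all 12 samples, Benjamini-Hochberg adjustment over all 11282 genes, threshold 0.05). The fit was tested on simulated data. Plots used matplotlib 3.10.9 (Python 3.11.15).

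The members and lists were chosen with earlier results of these data known. Named by rule were the targeted genes, all members, up to 3 largest called changes per list and knockout, and the 5 genes most like Cdkn1a and Trp53. So was each other list's most abundant gene, except Ei24 of the apoptosis targets, which is named only here. Also named were genes whose call changed under an alternative, some cell type markers, and further targets chosen after their values were seen. Tigar and Pidd1 were found under older symbols. Values of 1 further target are counted in the totals but are not reported here. Alternatives were a pseudocount of 0.1, no filter, median-ratio scaling, quantile normalization, a replicate block, only the groups compared, eBayes without trend, Tukey's test on RPKM, and each sample left out. Tukey's p-values, which already allow for all comparisons of a gene, were adjusted again by Benjamini-Hochberg over all genes tested. All calls and adjusted p-values given for Tukey's test are after this second adjustment. Rescaling without the 20 highest genes, here those with the highest means over all samples, and the alternatives for the further lists were added after the data were seen. Replicate numbers were checked for pairing by the correlation of same-numbered samples' deviations from their group means. For ptgs2-KO and ptges-KO samples all 3 pairs were over 0.1 (0.112 to 0.566). Some samples with different numbers correlated too. The correlation of ptgs2-KO replicate 2 with ptges-KO replicate 3 was 0.321, and that of ptgs2-KO replicate 3 with ptges-KO replicate 2 was 0.219. Whether the numbers pair these samples was therefore not settled, and no label says so. In no other comparison were all same-numbered pairs over 0.1.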

Additional observations from a re-analysis of the deposited data

Results flagged for a closer look

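For the genes below, changes against scramble cells differed between a pair of lines when these were compared directly by limma, at an adjusted p under 0.05. Between ptgs2-KO and ptgs1-KO cells the log2 differences were 1.32 for Ccng1, 0.91 for Cdkn1a, 0.63 for Mdm2, 0.63 for Trp53inp1, 0.51 for Phlda3, and 0.33 for Bax. Between ptges-KO and ptgs1-KO cells they were 1.01 for Ccng1, 0.59 for Phlda3, 0.52 for Cdkn1a, 0.47 for Bax, 0.43 for Mdm2, 0.36 for Trp53, and -0.25 for Bbc3. Between ptges-KO and ptgs2-KO cells they were -0.57 for Trp53inp1, -0.39 for Cdkn1a, and -0.31 for Ccng1. Single outlying samples were not tested for in groups of 3.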

How the results depend on the processing

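The counts of members and of all genes, the counts of further targets against scramble cells, and the members' fold changes were recomputed under 21 alternatives. The test over the 4 groups had no value by Tukey's test or with only the groups compared, and the other lists were recomputed only under the 3 scalings, with the replicate block, without ptgs1-KO replicate 3, and by Tukey's test. Called changes of the members kept their direction in all of them, and the 17 fold changes that reversed had not passed the test. By scaling, the log2 fold change of Cdkn1a in ptges-KO against scramble cells became 0.023 (median ratio), that of Bbc3 between ptges-KO and ptgs2-KO cells 0.015 (median ratio) and 0.014 (quantile normalization), that of Phlda3 in ptgs2-KO cells -0.016 (quantile normalization), and that of Trp53inp1 between ptges-KO and ptgs1-KO cells -0.012 (20 highest genes left out). With 1 replicate left out, the range against scramble cells crossed 0 for Trp53 (-0.065 to 0.085) and Bbc3 (-0.072 to 0.061) in ptgs1-KO cells, for Cdkn1a (-0.042 to 0.0070) in ptges-KO cells, and for Bax (-0.095 to 0.075), Phlda3 (-0.036 to 0.085), and Trp53inp1 (-0.078 to 0.17) in ptgs2-KO cells.

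The comparisons are given here in the order ptgs1-KO, ptgs2-KO, and ptges-KO against scramble, then ptges-KO against ptgs2-KO, ptges-KO against ptgs1-KO, and ptgs2-KO against ptgs1-KO. The members called were 6, 2, 4, 3, 7, and 6 of 8. Leaving out 1 replicate gave 3 to 6, 2 to 2, 2 to 4, 1 to 3, 6 to 7, and 5 to 6. Tukey's test on RPKM, which uses the spread of each gene alone, gave 2, 2, 0, 1, 3, and 4. Its p-values were adjusted again over all genes tested, so these counts are no higher than those of Tukey's test alone. Median-ratio scaling and quantile normalization gave 4 in ptgs2-KO cells.

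Over all genes tested, 1045, 1257, 2969, 1873, 3409, and 2665 were called. Without 1 replicate these were 645 to 1163, 722 to 1559, 1936 to 3282, 1104 to 2236, 2298 to 3566, and 2004 to 2840. Tukey's test gave 361, 420, 1151, 639, 1590, and 1300. Quantile normalization gave 1570 in ptgs1-KO cells and median-ratio scaling 1961 in ptgs2-KO cells. With the 20 highest genes left out of the scaling, the split of higher and lower calls moved from 1342 and 1627 to 1059 and 2362 (ptges-KO against scramble), from 763 and 1110 to 693 and 1751 (ptges-KO against ptgs2-KO), and from 1494 and 1915 to 1210 and 2766 (ptges-KO against ptgs1-KO). By the median ratio the balance turned in all 3, to 2054 and 1715, 1290 and 1208, and 2209 and 1907. By quantile normalization it turned against scramble (1870 and 1606) and against ptgs1-KO cells (1970 and 1791), but not against ptgs2-KO cells (1092 and 1253). With the 20 highest genes left out it turned in ptgs2-KO against scramble cells (from 674 and 583 to 733 and 777) and against ptgs1-KO cells (from 1360 and 1305 to 1388 and 1572).

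Of the 33 further p53 targets, 12, 7, and 9 were called against scramble. Leaving out 1 replicate gave 7 to 13, 5 to 11, and 6 to 11, and Tukey's test 2, 4, and 5. In ptgs2-KO cells the median ratio gave 13 and quantile normalization 11.

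Same-numbered ptgs2-KO and ptges-KO samples deviated together (0.112 to 0.566), but so did some with different numbers (up to 0.321), so pairing was not settled. With a replicate block, the comparison of these lines had 3 members called, as without it, and 2011 genes instead of 1873. In the other 5 comparisons at most 1 of 3 pairs had a correlation over 0.1, so the numbers were not taken to pair those samples. With a replicate block, 3 members were called in ptges-KO against scramble cells, with Bbc3 lost (adjusted p = 0.053), 6 in ptges-KO against ptgs1-KO cells, and 7 of 8 over the groups. The block gave 1105, 1365, 3099, 2011, 3561, and 2771 genes in the order above.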
